A study of Mus musculus with 4 samples.

Results

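Glycolysis and hypoxia response genes encode the enzymes and transporters that turn glucose into lactate, together with the oxygen sensors and the targets of the hypoxia-inducible factor HIF. They were taken as 33 gene symbols, and all probe sets of the array whose annotation names one of these symbols alone were used, without the control probe sets of the array maker. This gave 60 of 22690 probe sets, for 27 of the 33 genes. No probe set named Hk3, Gpi1, Pfkfb4 or Eno1 alone. Gapdh was represented only by 3 control probe sets and 2 probe sets shared with other genes, and Bnip3l only by 3 probe sets shared with a pseudogene, so these 6 genes were not analysed here.

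Macrophages carrying a yellow fluorescent protein (YFP) were collected by flow sorting from mouse mammary glands, and 1 RNA sample per group was measured on 1 Affymetrix array, 4 arrays in all. Tumor macrophages came from PyMT mammary tumors (raised by the polyoma virus middle T antigen) at an early stage: 1 group was Ets2-deficient, with 2 copies of Ets2 deleted, and 1 was Ets2-expressing, named wild type in its title but given 1 copy of Ets2 in its source label. Remodeling macrophages came from glands without tumor: 1 group was Ets2-deficient, again with 2 copies deleted, and 1 was Ets2-expressing and named wild type. By the submitters' design text Ets2 was lost in the macrophages; the promoter behind the deletion or the YFP, the age of the mice and how many were pooled are not given in the sources used here. Ets2, an ETS family gene, encodes a DNA-binding regulator of transcription. Its own probe set read 12.67 (Ets2-deficient) and 12.77 (Ets2-expressing) on the tumor arrays, and 12.97 (Ets2-deficient) and 13.24 (Ets2-expressing) on the remodeling arrays, a difference of -0.09 in tumor and -0.28 in remodeling macrophages, and was bright on all 4 arrays; the deleted exons are not given, and a probe set outside them would check nothing.

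Each group being 1 array, differences have no replicate check and no p-value; higher and lower below describe these 4 arrays. All values are log2 levels as the authors deposited them, or differences of such levels, so that a difference of 1 is 2-fold. Where a gene had several probe sets, the brightest on average stands for it. A gene was called where the difference was at least 2-fold and the brighter value reached the median of its own array over all probe sets (6.298 and 6.22 for the Ets2-deficient and Ets2-expressing tumor arrays, 5.98 and 6.17 for the Ets2-deficient and Ets2-expressing remodeling arrays). Below each array's 25th percentile (4.27 to 4.32) a level was taken as background. Error could be gauged only from how far bright probe sets of 1 gene differ. Over the members its standard deviation had a median of 0.15 in the tumor Ets2 comparison, 0.17 in the remodeling Ets2 comparison, 0.13 in the tumor minus remodeling comparison of the Ets2-deficient arrays and 0.13 in that of the Ets2-expressing arrays; it covers neither animals, sorts nor amplification. In these bulk samples fewer cells of a type and less RNA per cell cannot be told apart.

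Glycolysis splits glucose into pyruvate with a small yield of ATP, and cells short of oxygen, as well as activated macrophages, send much of that pyruvate to lactate. HIF consists of an oxygen-regulated alpha subunit, such as the one encoded by Hif1a, and a constant partner. When oxygen is plentiful, the prolyl hydroxylases encoded by Egln genes mark the alpha subunit for destruction. When it is scarce, the subunit persists and binds short DNA elements next to many glycolytic genes, so that the protein, more than the Hif1a transcript, carries the signal.

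The core of such a HIF element is ACGTG or GCGTG, and the promoters of Aldoc, Egln3 and Pfkl are shown because these genes were higher in tumor than in remodeling macrophages past 2-fold on the Ets2-deficient arrays under every scaling; Ndrg1, which shares this, had no promoter in the table. Each sequence is 300 bases long and runs 5′ to 3′ along the gene across the annotated start, from RefSeq on GRCm38.p6, with matches to the cores on either strand in capitals.
Aldoc, chr11:78322823-78323122, plus strand: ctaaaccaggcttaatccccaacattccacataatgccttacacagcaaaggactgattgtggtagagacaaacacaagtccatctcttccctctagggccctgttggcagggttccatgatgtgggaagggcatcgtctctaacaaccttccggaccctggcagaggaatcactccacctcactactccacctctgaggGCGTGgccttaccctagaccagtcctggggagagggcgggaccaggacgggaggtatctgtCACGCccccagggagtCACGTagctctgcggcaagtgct
Egln3, chr12:54203825-54204124, minus strand: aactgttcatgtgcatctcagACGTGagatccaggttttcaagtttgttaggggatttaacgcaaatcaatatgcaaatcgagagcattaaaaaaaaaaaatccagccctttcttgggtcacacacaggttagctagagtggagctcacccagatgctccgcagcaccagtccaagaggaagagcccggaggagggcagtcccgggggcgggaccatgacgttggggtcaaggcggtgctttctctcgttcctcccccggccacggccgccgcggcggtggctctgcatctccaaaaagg
Pfkl, chr10:78009758-78010057, minus strand: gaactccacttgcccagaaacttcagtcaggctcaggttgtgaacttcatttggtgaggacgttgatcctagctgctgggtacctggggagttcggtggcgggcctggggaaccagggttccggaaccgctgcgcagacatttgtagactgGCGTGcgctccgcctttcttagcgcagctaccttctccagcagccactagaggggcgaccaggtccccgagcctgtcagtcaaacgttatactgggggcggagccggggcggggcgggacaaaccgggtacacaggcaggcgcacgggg
The Aldoc window held 1 match to ACGTG and 2 to GCGTG, the Egln3 window 1 and 0, and the Pfkl window 0 and 1. Aldoc has another annotated start, whose window held 0 and 1. ACGTG also lies inside the palindrome CACGTG, which other factors such as MYC bind and which was counted on both strands; none of these windows held it, and 11.1% of the member windows and 7.15% of all windows did. Promoters of 30 members were in the table, with 45 annotated starts. At least 1 core was found in 36 of the 45 windows (80.0%), against 43.8% of all 32851 promoter windows of the same length. For ACGTG the shares were 55.6% and 19.6%, and for GCGTG 51.1% and 32.4%. These shares were not matched for base composition, and both cores hold a CG pair. The members were listed in part as HIF targets, so their larger shares are no independent finding about them. Some windows of 1 gene overlap and hold the same match, as for Aldoa, Eno1 and Pfkm. A match describes letters only. The windows of Eno2, Gpi1 and Tpi1 held neither core. Slc2a3, Ndrg1 and Bnip3l were not matched to a promoter.

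On the Ets2-deficient arrays 8 members were higher and 1 was lower in tumor than in remodeling macrophages past 2-fold. Of all 7203 genes bright enough in that comparison 9.22% were called, 7.61% higher and 1.61% lower. The higher members were Aldoc, Egln3, Pfkl, Ndrg1, Ldha, Hk1, Ldhb and Ddit4, and the lower one was the glucose transporter gene Slc2a3. On the Ets2-expressing arrays only Aldoc and Egln3 were higher and Slc2a3 lower among the 27 members, where 11.4% of 7253 genes were called (6.18% higher and 5.20% lower). With 26 members bright enough in each, 9 calls on the Ets2-deficient arrays were above the background share, and 3 on the Ets2-expressing arrays were close to it. These 2 comparisons share no array, and Aldoc, Egln3 and Slc2a3 were called in both. The median member difference was 0.47 on the Ets2-deficient arrays (all 12393 genes 0.01) and 0.30 on the Ets2-expressing arrays (all genes 0.08). At 1.5-fold, 11 members were higher and 1 lower on the Ets2-deficient arrays (background 23.7% in either direction, 15.9% higher and 7.76% lower), and 4 were higher and 4 lower on the Ets2-expressing arrays (29.8%, 16.9% and 13.0%). The calls of Hk1, Ldha, Ldhb and Ddit4 were lost when each array was centred on its median or on its hybridization controls, which moved the median of all genes on the Ets2-deficient arrays to -0.31 and -0.21. Pfkm, dim throughout, could not be called in any comparison.

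**Figure D1:**
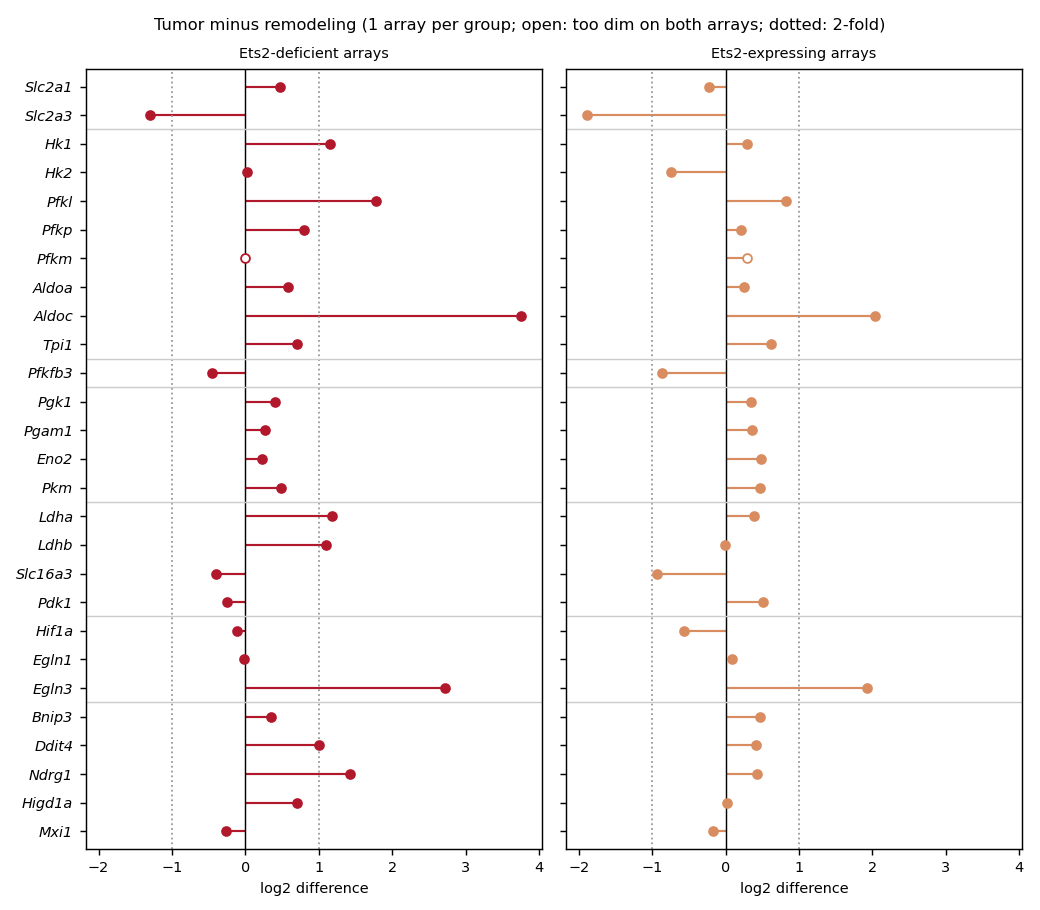
Tumor minus remodeling log2 difference of each of the 27 measured members (x axis), for the Ets2-deficient arrays (left) and the Ets2-expressing arrays (right), 1 array per group. Filled points were bright enough to be called, the open point (Pfkm) was not, dotted lines mark 2-fold, and grey lines separate roles. Aldoc and Egln3 lie far to the right in both panels and Slc2a3 far to the left.

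In the Ets2 comparisons, deficient minus expressing, the members' counts at 2-fold were near or below the background. On the deposited values, the counts at 1.5-fold were near it in tumor macrophages and above it in remodeling macrophages. In tumor macrophages Aldoc alone of 26 bright members was called, as higher, where 2.99% of 7225 bright genes were called (2.23% higher). In remodeling macrophages none of 23 bright members was called, where 6.48% of 7095 genes were (1.31% higher and 5.17% lower). At 1.5-fold, Aldoc, Ldhb, Slc2a3 and Hk1 were higher and none lower in tumor macrophages (15.3% of all genes in either direction, 9.27% higher and 5.99% lower), while Pdk1 was higher and Hk2, Pfkfb3, Slc16a3, Ddit4 and Ndrg1 were lower in remodeling macrophages (16.3%, 6.53% and 9.73%). The median member difference was 0.24 in tumor (all genes 0.00) and -0.18 in remodeling macrophages (all genes 0.04). Centring each array on its median moved all genes of the remodeling comparison up by 0.19, so that the median member lay at 0.018, and relative to the median of all genes it stayed 0.21 lower.

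**Figure D2:**
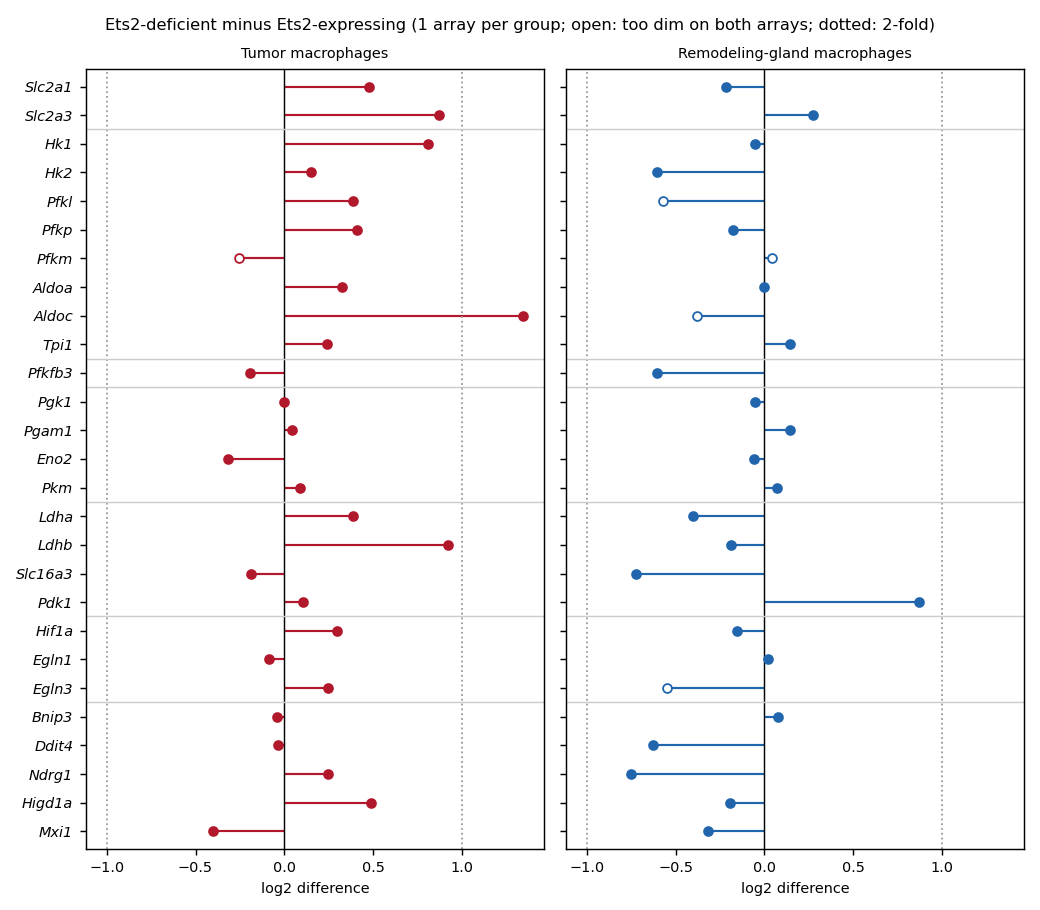
Ets2-deficient minus Ets2-expressing log2 difference of each measured member (x axis), in tumor macrophages (left) and remodeling macrophages (right), 1 array per group. Filled points were bright enough to be called, open points were too dim on both arrays, and dotted lines mark 2-fold. On the values as deposited, 19 of 27 members (70.4%) lie right of 0 in tumor macrophages, against 49.8% of all genes. In remodeling macrophages 19 of 27 lie left of 0 and 8 (29.6%) right of it, against 54.2% of all genes right of it. After median centring 16 of 27 lie right of 0 in remodeling macrophages, against 75.8% of all genes.

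Glucose enters cells through facilitative transporters. Slc2a1, which encodes the widespread transporter GLUT1, read 12.01 (Ets2-deficient) and 11.53 (Ets2-expressing) on the tumor arrays, and 11.54 (Ets2-deficient) and 11.75 (Ets2-expressing) on the remodeling arrays. It was highest on the Ets2-deficient tumor array, while the other 3 arrays lay within 0.22 of each other. All 3 of its probe sets were bright, with tumor Ets2 differences of 0.48 to 0.95, all positive, and remodeling Ets2 differences of -0.25 to -0.22, all negative. For the probe set used, the remodeling difference shrank to -0.02 with median centring and with centring on the hybridization controls. Slc2a3, which encodes the high-affinity transporter GLUT3, read 9.40 (Ets2-deficient) and 8.54 (Ets2-expressing) on the tumor arrays, and 10.70 (Ets2-deficient) and 10.42 (Ets2-expressing) on the remodeling arrays. Both tumor arrays lay below both remodeling arrays, by 2.45-fold with the Ets2-deficient label and 3.7-fold with the Ets2-expressing label, the 43rd lowest of 7203 and the 81st lowest of 7253 bright genes. Its second bright probe set gave -1.33 and -2.03 for the same comparisons, while 2 further probe sets were dim on every array (3.89 to 5.38). Both bright Slc2a3 probe sets are of the types (x_at and s_at) whose probes may also match other transcripts.

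Hexokinases trap glucose in the cell as glucose 6-phosphate. Hk1, the widespread form, read 9.06 (Ets2-deficient) and 8.25 (Ets2-expressing) on the tumor arrays, and 7.90 (Ets2-deficient) and 7.96 (Ets2-expressing) on the remodeling arrays. The Ets2-deficient tumor array stood apart from the other 3, with a tumor Ets2 difference of 0.81 and a tumor minus remodeling difference of 1.16 on the Ets2-deficient arrays, against 0.29 on the Ets2-expressing arrays. Hk2, the form that is induced by HIF and by activating signals, read 10.34 (Ets2-deficient) and 10.19 (Ets2-expressing) on the tumor arrays, and 10.32 (Ets2-deficient) and 10.93 (Ets2-expressing) on the remodeling arrays. Here the Ets2-expressing remodeling array was the high one, and the other 3 lay within 0.15 of each other. The 2 hexokinase genes had their highest level on different arrays, but the Ets2 difference in tumor minus that in remodeling macrophages was positive for both, at 0.86 for Hk1 and 0.76 for Hk2.

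Phosphofructokinase catalyses the committed step and has a liver-type (Pfkl), a platelet-type (Pfkp) and a muscle-type (Pfkm) subunit. Pfkl read 7.32 (Ets2-deficient) and 6.93 (Ets2-expressing) on the tumor arrays, and 5.53 (Ets2-deficient) and 6.10 (Ets2-expressing) on the remodeling arrays. Both remodeling arrays were below their array median, and tumor exceeded remodeling by 3.44-fold on the Ets2-deficient arrays and by 1.78-fold on the Ets2-expressing arrays. Its other probe set gave log2 differences of 1.19 and 0.97 for these, but -0.25 where the probe set used gave 0.38 in the tumor Ets2 comparison. Pfkp, bright on every array, differed by 0.80 between tumor and remodeling on the Ets2-deficient arrays and by 0.21 on the Ets2-expressing arrays. Pfkm stayed between 5.41 and 5.71. Pfkfb3, whose product makes the fructose 2,6-bisphosphate that activates phosphofructokinase, read 9.61 (Ets2-deficient) and 9.80 (Ets2-expressing) on the tumor arrays, and 10.06 (Ets2-deficient) and 10.67 (Ets2-expressing) on the remodeling arrays. It ran opposite to Pfkl, with both tumor arrays below both remodeling arrays and differences of -0.45 (Ets2-deficient) and -0.87 (Ets2-expressing), neither past 2-fold.

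Aldolase splits the 6-carbon sugar, and its C isoform, Aldoc, best known from brain, had the largest range over the 4 arrays among the members. Aldoc read 7.70 (Ets2-deficient) and 6.36 (Ets2-expressing) on the tumor arrays, and 3.94 (Ets2-deficient) and 4.32 (Ets2-expressing) on the remodeling arrays. It was bright on both tumor arrays and near background on both remodeling arrays, so the sizes of the differences are not exact: 3.76 between tumor and remodeling macrophages with the Ets2-deficient label, 2.03 with the Ets2-expressing label, and 1.35 between the Ets2 labels in tumor macrophages. These ranked 57th highest of 7203, 107th of 7253 and 68th of 7225 bright genes. The second Aldoc probe set was dim on all 4 arrays (5.42 and 4.50 on the Ets2-deficient and Ets2-expressing tumor arrays, 4.10 and 5.12 on the Ets2-deficient and Ets2-expressing remodeling arrays). It was higher with the Ets2-deficient label in tumor macrophages by 0.92 and higher in tumor than in remodeling macrophages on the Ets2-deficient arrays by 1.32, but gave -0.63 on the Ets2-expressing arrays. The ubiquitous isoform Aldoa, bright in all 4 probe sets (each of the x_at type), read 12.81 (Ets2-deficient) and 12.48 (Ets2-expressing) on the tumor arrays, and 12.23 (Ets2-deficient) and 12.23 (Ets2-expressing) on the remodeling arrays. Its tumor Ets2 difference lay between 0.33 and 0.49 in the 4 probe sets. Tpi1, the isomerase that follows aldolase, was higher in tumor than in remodeling macrophages by 0.71 (Ets2-deficient) and 0.61 (Ets2-expressing), and its 3 probe sets gave 0.62 to 0.71 and 0.49 to 0.61.

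**Figure D3:**
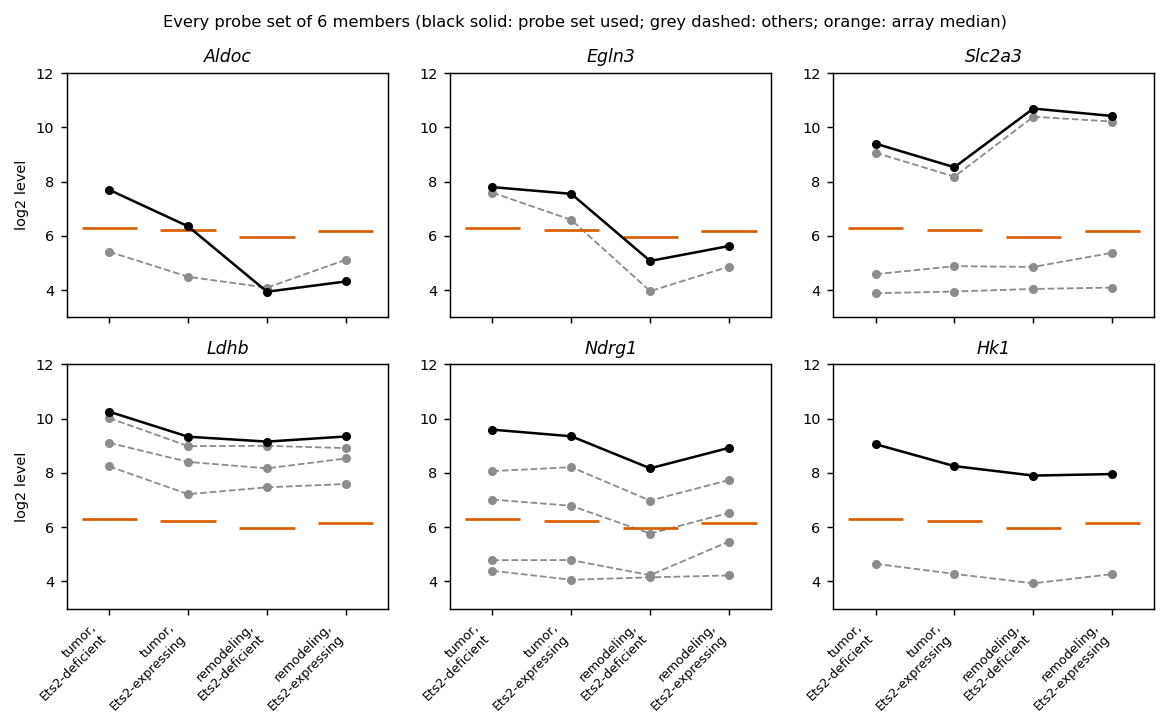
Log2 level (y axis) of every probe set of Aldoc, Egln3, Slc2a3, Ldhb, Ndrg1 and Hk1 on the 4 arrays (x axis). Black lines are the probe set used, grey dashed lines the others, and orange bars each array's median. Egln3 drops below the array median on both remodeling arrays in its 2 probe sets, and the 2 bright Slc2a3 probe sets are higher there.

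The later steps of the pathway, Pgk1, Pgam1, Eno2 and Pkm, differed by less than 0.5 in every comparison on the deposited values of the probe sets used; a second bright Pgk1 probe set gave 0.54 between the Ets2-expressing arrays of tumor and remodeling macrophages, and quantile normalization brought Pkm (0.54) and Eno2 (0.51) past this size there. Pgk1, which encodes the kinase of the first ATP-yielding step, read 11.86 (Ets2-deficient) and 11.86 (Ets2-expressing) on the tumor arrays, and 11.46 (Ets2-deficient) and 11.51 (Ets2-expressing) on the remodeling arrays. Pgam1 (phosphoglycerate mutase), Pkm (pyruvate kinase) and Eno2 (the neuronal enolase) had the same arrangement, with both tumor arrays above both remodeling arrays, though on the Ets2-deficient arrays the order of Pgam1 and Eno2 turned under some scalings. Over these 4 genes the tumor minus remodeling difference was 0.22 to 0.49 on the Ets2-deficient arrays and 0.35 to 0.48 on the Ets2-expressing arrays. Their Ets2 differences ran from -0.32 to 0.09 in tumor and from -0.06 to 0.14 in remodeling macrophages, with Eno2 at -0.32 the only one of these beyond 0.15 in either setting. The Gapdh control probe sets, which are not members, gave tumor minus remodeling differences of 0.30 (3′), 0.34 (middle) and -0.17 (5′) on the Ets2-deficient arrays and 0.08, -0.06 and -0.76 on the Ets2-expressing arrays. Their 3′ minus 5′ difference, a rough gauge of RNA integrity and of the length of amplified product, was 2.27 (Ets2-deficient) and 2.45 (Ets2-expressing) in tumor and 1.80 (Ets2-deficient) and 1.61 (Ets2-expressing) in remodeling macrophages. The control genes disagreed on it: the same difference was also larger on the tumor arrays for Actb, at 3.54 (Ets2-deficient) and 3.30 (Ets2-expressing) in tumor and 2.96 (Ets2-deficient) and 2.72 (Ets2-expressing) in remodeling macrophages. For Tfrc it was smaller there, at 5.27 (Ets2-deficient) and 5.03 (Ets2-expressing) in tumor and 5.96 (Ets2-deficient) and 5.75 (Ets2-expressing) in remodeling macrophages. Its part in the member differences was not tested.

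Lactate dehydrogenase joins pyruvate and lactate. Ldha, the A subunit, favors lactate formation and read 11.83 (Ets2-deficient) and 11.44 (Ets2-expressing) on the tumor arrays, and 10.65 (Ets2-deficient) and 11.05 (Ets2-expressing) on the remodeling arrays. The order was the same as for Aldoc, with the 2 tumor arrays on top and the Ets2-deficient remodeling array lowest, and the difference on the Ets2-deficient arrays was 2.26-fold. Ldhb, the B subunit of heart and other oxidative tissues, read 10.26 (Ets2-deficient) and 9.34 (Ets2-expressing) on the tumor arrays, and 9.15 (Ets2-deficient) and 9.34 (Ets2-expressing) on the remodeling arrays. Only the Ets2-deficient tumor array stood out, by 0.92 over the Ets2-expressing tumor array and 1.10 over the Ets2-deficient remodeling array. The 4 Ldhb probe sets, all bright, gave 0.70 to 1.04 in the tumor Ets2 comparison, of which 2 exceeded 2-fold, and -0.37 to 0.08 in the remodeling Ets2 comparison.

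Slc16a3, which encodes the lactate exporter MCT4, read 8.59 (Ets2-deficient) and 8.78 (Ets2-expressing) on the tumor arrays, and 8.99 (Ets2-deficient) and 9.71 (Ets2-expressing) on the remodeling arrays. It was highest on the Ets2-expressing remodeling array, where the Ets2 difference was -0.72, and unlike Ldha it was lower in tumor than in remodeling macrophages (-0.40 with the Ets2-deficient and -0.93 with the Ets2-expressing label). Centring on the hybridization controls brought the second value to -1.01, past 2-fold. Pdk1, whose kinase keeps pyruvate out of the mitochondrial oxidation route, read 8.21 (Ets2-deficient) and 8.11 (Ets2-expressing) on the tumor arrays, and 8.46 (Ets2-deficient) and 7.59 (Ets2-expressing) on the remodeling arrays. It was the member with the largest positive Ets2 difference in remodeling macrophages (0.87, with 0.61 in its other probe set), and scaling to array medians gave 1.06 and to the hybridization controls 1.07, both past 2-fold. In tumor macrophages it differed by 0.10.

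Among the oxygen-sensing genes only Egln3 was called in any comparison. Egln3 encodes the prolyl hydroxylase PHD3, itself a HIF target, and read 7.80 (Ets2-deficient) and 7.55 (Ets2-expressing) on the tumor arrays, and 5.08 (Ets2-deficient) and 5.63 (Ets2-expressing) on the remodeling arrays. Both tumor arrays were above their medians and both remodeling arrays below, a 6.59-fold difference with the Ets2-deficient label and 3.79-fold with the Ets2-expressing label. The second Egln3 probe set read 7.60 (Ets2-deficient) and 6.59 (Ets2-expressing) on the tumor arrays, and 3.97 (Ets2-deficient) and 4.87 (Ets2-expressing) on the remodeling arrays, with differences of 3.63 and 1.72 for the same labels. The 2 probe sets disagreed on the tumor Ets2 difference, at 0.25 and 1.005. Egln1, which encodes the main oxygen sensor PHD2, stayed between 10.26 and 10.35 in the probe set used. Its second probe set, bright on all 4 arrays, gave tumor minus remodeling differences of 0.55 (Ets2-deficient) and 0.53 (Ets2-expressing). Hif1a read 10.42 (Ets2-deficient) and 10.12 (Ets2-expressing) on the tumor arrays, and 10.54 (Ets2-deficient) and 10.69 (Ets2-expressing) on the remodeling arrays, a range of 0.57 in all, highest on the Ets2-expressing remodeling array. Its 3 strongly bright probe sets gave remodeling Ets2 differences of -0.15 to -0.72. The remaining probe set, bright only on the Ets2-expressing remodeling array (6.23), gave -1.32.

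Of the 5 other hypoxia response members, Bnip3, Ddit4, Ndrg1 and Higd1a had both tumor arrays above both remodeling arrays, on the deposited values of the probe sets used. Mxi1 did not, and Higd1a did by only 0.02 on the Ets2-expressing arrays. Ndrg1, Ddit4 and Higd1a were lowest on the Ets2-deficient remodeling array. Ndrg1, a stress-induced gene that responds strongly to hypoxia in many cell types, read 9.60 (Ets2-deficient) and 9.35 (Ets2-expressing) on the tumor arrays, and 8.17 (Ets2-deficient) and 8.92 (Ets2-expressing) on the remodeling arrays. Its 3 bright probe sets agreed closely in the remodeling Ets2 comparison (-0.76 to -0.75) and lay between 1.09 and 1.43 for tumor minus remodeling on the Ets2-deficient arrays. Ddit4, whose product REDD1 restrains the growth kinase complex mTORC1, read 10.19 (Ets2-deficient) and 10.23 (Ets2-expressing) on the tumor arrays, and 9.19 (Ets2-deficient) and 9.82 (Ets2-expressing) on the remodeling arrays. It was just past 2-fold in tumor over remodeling macrophages with the Ets2-deficient label (1.003), and its tumor Ets2 difference was -0.03. Bnip3, a mitochondrial receptor for mitophagy, was higher on both tumor arrays by 0.35 (Ets2-deficient) and 0.47 (Ets2-expressing). Higd1a, a small mitochondrial protein gene, had probe sets that disagreed: the one used gave 0.70 for tumor minus remodeling on the Ets2-deficient arrays and the second bright one -0.32. Mxi1, an antagonist of MYC, was lower with the Ets2-deficient label in both settings (-0.40 in tumor and -0.32 in remodeling macrophages) and lower in tumor than in remodeling macrophages under every scaling tried.

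**Figure D4:**
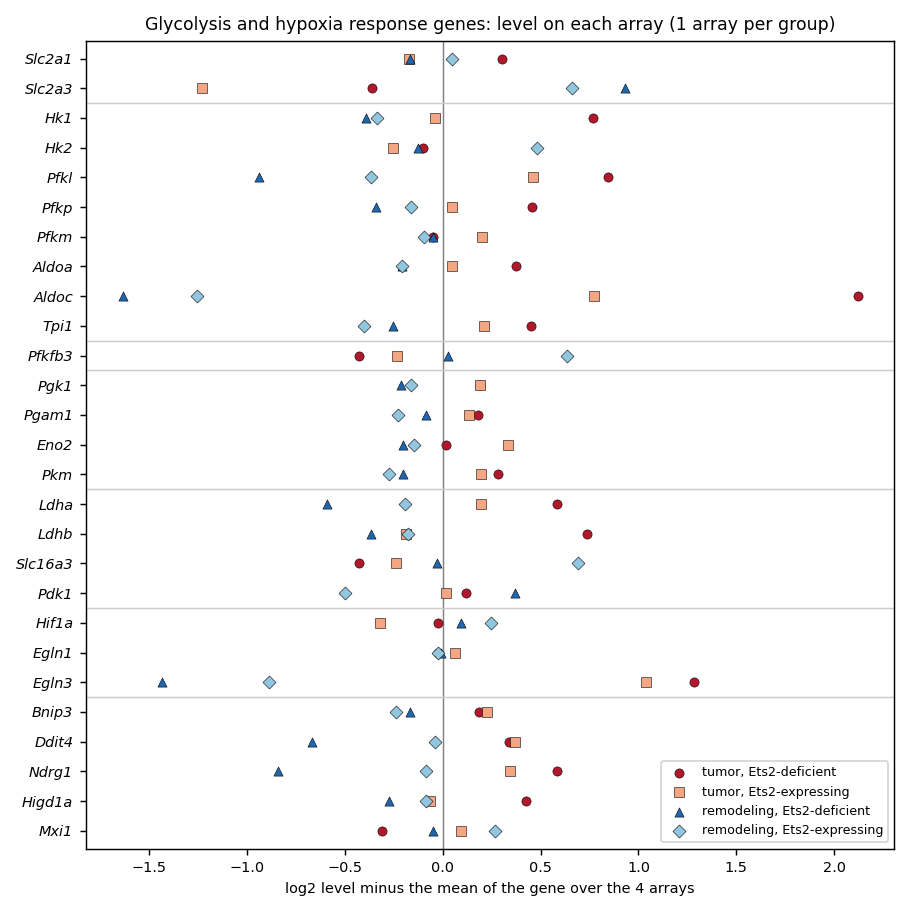
Log2 level of each measured member on each of the 4 arrays, as the distance from that gene's mean over the arrays (x axis), with genes grouped by role (y axis, grey lines between roles). Red circles (Ets2-deficient tumor) lie farthest right for 15 of 27 genes and dark blue triangles (Ets2-deficient remodeling) farthest left for 13. The values are as deposited, and these counts were not taken over all genes.

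Seen array by array, 15 of the 27 members were highest on the Ets2-deficient tumor array and 13 were lowest on the Ets2-deficient remodeling array. Both tumor arrays lay above both remodeling arrays for 16 members and below them for 4 (Slc2a3, Pfkfb3, Slc16a3, Hif1a). These counts were taken on the deposited values and for the members only, with no share over all genes beside them. Without that share they cannot tell whether the arrangement is particular to the members. The Ets2-deficient remodeling array also had the lowest median (5.98) and the lowest mean of hybridization controls (9.53). The Ets2 difference was positive in tumor and negative in remodeling macrophages for 14 members (51.9%, against 20.6% of all genes), a count that became 13 with quantile normalization, 7 with median centring (25.9%, against 9.93%) and 8 with the hybridization controls as the scale (29.6%, against 13.3%). Slc2a1, Hk2, Pfkl, Aldoc, Ldha, Egln3 and Ndrg1 held that arrangement in all 4 scalings, for the probe sets used. Another bright probe set gave a negative tumor Ets2 difference for Pfkl (-0.25) and for Ndrg1 (-0.15). In the remodeling Ets2 comparison Pfkl, Aldoc and Egln3 were too dim to be called. With median centring Slc2a1 gave only -0.02 in remodeling macrophages and Hk2 only 0.07 in tumor macrophages. The Ets2 difference in tumor minus that in remodeling macrophages had a median of 0.53 over the members and -0.03 over all genes. It was at least 1 log2 for Aldoc (1.73) and Ldhb (1.11), where 8.50% of the 7473 genes bright on any array reached that.

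Genes of mammary epithelium, the cell type that surrounds these macrophages, followed the same order of arrays as many members. The summed level of 14 such markers, on the log2 scale, was 14.27 (Ets2-deficient) and 13.38 (Ets2-expressing) on the tumor arrays, and 8.95 (Ets2-deficient) and 9.80 (Ets2-expressing) on the remodeling arrays. On the tumor arrays no marker was below the 25th percentile of its array, and on the remodeling arrays 2 (Ets2-deficient) and 3 (Ets2-expressing) were. The full order, Ets2-deficient tumor, Ets2-expressing tumor, Ets2-expressing remodeling and Ets2-deficient remodeling from high to low, was held by 9 of the 14 markers, by 10 of the 27 members (Hk1, Pfkl, Pfkp, Aldoa, Aldoc, Pgk1, Ldha, Egln3, Ndrg1 and Higd1a; 37.0%) and by 5.66% of all genes. With median centring 5 members held it (18.5%, against 2.23% of all genes), and with quantile normalization 10 did (37.0%, against 4.61%). With the hybridization controls as the scale 6 did (22.2%, against 2.65%). For the markers it was counted on the deposited values only. Neutrophil markers, 10 measured, summed to 14.29 (Ets2-deficient) and 13.13 (Ets2-expressing) on the tumor arrays, and to 13.71 (Ets2-deficient) and 14.07 (Ets2-expressing) on the remodeling arrays. The 10 fibroblast markers summed to 13.40 (Ets2-deficient) and 13.38 (Ets2-expressing) on the tumor arrays, and to 12.58 (Ets2-deficient) and 14.36 (Ets2-expressing) on the remodeling arrays. The neutrophil sum, which S100a8 and S100a9 dominate, was lowest on the Ets2-expressing tumor array. Among the bright neutrophil markers S100a8, S100a9, Cxcr2, Il1r2 and Mmp9 were each lowest there, and Csf3r and Ltf on the Ets2-deficient remodeling array. The median neutrophil marker was lowest on the Ets2-deficient remodeling array (6.80). That median depends on Ltf, which read 10.51 (Ets2-deficient) and 9.53 (Ets2-expressing) on the tumor arrays. On the remodeling arrays Ltf read 4.52 (Ets2-deficient) and 5.87 (Ets2-expressing). The fibroblast sum was lowest on the Ets2-deficient remodeling array. Mast cell markers, 7 measured, summed to 8.90 (Ets2-deficient) and 9.41 (Ets2-expressing) on the tumor arrays, and to 8.08 (Ets2-deficient) and 10.53 (Ets2-expressing) on the remodeling arrays. The 6 endothelial markers summed to 7.998 (Ets2-deficient) and 8.12 (Ets2-expressing) on the tumor arrays, and to 7.46 (Ets2-deficient) and 9.05 (Ets2-expressing) on the remodeling arrays. Both were lowest on the Ets2-deficient remodeling array, the one on which 13 members were lowest. Macrophage markers, 11 measured, differed less, at 15.62 (Ets2-deficient) and 15.70 (Ets2-expressing) on the tumor arrays, and 15.69 (Ets2-deficient) and 15.76 (Ets2-expressing) on the remodeling arrays. Cell cycle genes summed to 12.42 (Ets2-deficient) and 11.91 (Ets2-expressing) on the tumor arrays, and to 12.52 (Ets2-deficient) and 11.69 (Ets2-expressing) on the remodeling arrays. The part of these other cells and of the cell cycle in the member differences was not tested.

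Beyond the members, 25 further genes known to respond to hypoxia were measured. In tumor over remodeling macrophages 19 of them were bright enough on the Ets2-deficient arrays, where 2 were called higher (Car12 and Lox) and 0 lower, with a median of 0.28 over all 25. On the Ets2-expressing arrays 20 were bright enough, and 0 were called higher and 4 lower, with a median of -0.03. Of all bright genes 9.22% were called on the Ets2-deficient arrays (7.61% higher and 1.61% lower), so the first count is near the background. On the Ets2-expressing arrays 11.4% were called (6.18% higher and 5.20% lower), so the 4 lower of 20 are above the background. Car12, a carbonic anhydrase gene, read 7.75 (Ets2-deficient) and 6.19 (Ets2-expressing) on the tumor arrays, and 4.10 (Ets2-deficient) and 4.79 (Ets2-expressing) on the remodeling arrays, an arrangement like that of Aldoc and Egln3. Vegfa, which encodes the main angiogenic growth factor, went the other way and read 7.49 (Ets2-deficient) and 7.24 (Ets2-expressing) on the tumor arrays, and 8.37 (Ets2-deficient) and 8.997 (Ets2-expressing) on the remodeling arrays. Its tumor minus remodeling difference was -1.75 on the Ets2-expressing arrays, where the other called genes were the collagen-modifying genes P4ha1 (-1.05) and Plod2 (-2.02) and the vasodilator peptide gene Adm (-1.38).

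In the tumor Ets2 comparison 1 of the 19 bright genes was called higher (Car12, 1.56) and 1 lower (Angptl4, -1.85), against 2.99% of all bright genes, with a median of 0.06 over all 25. In the remodeling Ets2 comparison 6.48% of all bright genes were called, 1.31% higher and 5.17% lower. Of the 20 bright genes here 0 were called higher and 4 lower, above the share called lower, with a median of -0.28 over all 25. The 4 were Adm (-2.84), Plod2 (-2.70), the collagen crosslinking enzyme gene Lox (-2.11) and Angptl4 (-1.25), whose product inhibits lipoprotein lipase. Adm and Plod2 read 3.78 and 4.14 on the Ets2-deficient remodeling array, in the range of background, so these sizes are not exact. The summed fibroblast level given above was also lower on that array, at 12.58, than on the Ets2-expressing remodeling array, at 14.36, and its part in these differences was not tested. Of 8 measured regulators of HIF, 5 (Epas1, Hif3a, Arnt, Arnt2 and Vhl) were below every array median and none was called. Among the bright ones, Cited2, a competitor of HIF for its coactivator, was higher on the Ets2-deficient array of both settings (0.48 in tumor and 0.50 in remodeling macrophages).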

How the data were processed

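The series holds 4 Affymetrix mouse arrays, 1 for each group, of sorted YFP-positive macrophages. Per the labels' protocols, about 10 ng of RNA went into cDNA amplification (NuGEN Ovation) and the product carried biotin. The values are log2 expression values per probe set as the authors deposited them. GCOS and RMA appear in the submitters' processing notes; their versions and roles, and which arrays were normalized together, are not given in the sources used here. Values ran from 2.75 to 14.9 and were not rescaled. All 4 columns were used and 0 were left out.

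Of 22690 probe sets, 20380 named 1 gene, 691 several, 1555 none, and 64 were controls, by the annotation of the array. Genes were represented by their probe set with the highest mean, which left 12393 genes. Differences per gene were computed with Python 3.11.15, pandas 2.3.3 and numpy 2.4.6, and the call was tested on simulated data. The members and all gene lists were chosen with earlier results of these data known. All members may be named, and from the related lists the genes called at 2-fold in any comparison. Cited2, Epas1, Hif3a, Arnt, Arnt2, Vhl, Taldo1, Tkt and Pdk4 were named after their values were seen. So were the neutrophil markers S100a8, S100a9, Cxcr2, Il1r2, Mmp9, Csf3r and Ltf. Alternatives were median centring, quantile normalization, centring on 18 hybridization controls, the mean of all bright probe sets, no brightness filter, a 75th percentile filter and 1.5-fold. Promoters came from RefSeq on GRCm38.p6 and no gene position was read from the arrays. The number of arrays limits the precision.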

Additional observations from a re-analysis of the deposited data

Results flagged for a closer look

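For 2 members the Ets2 differences pointed in opposite directions in the 2 settings and lay at least 1 log2 apart; each setting has 1 array per label, and the difference between settings was not tested. Aldoc was higher with the Ets2-deficient label in tumor macrophages (1.35) and lower in remodeling macrophages (-0.38), 1.73 apart, with both remodeling levels near background. Ldhb gave 0.92 in tumor and -0.19 in remodeling macrophages, 1.11 apart. Of the 7473 genes bright on any array, 8.50% lay at least 1 log2 apart with the tumor value the greater, whatever the signs, so 2 of 27 members are no more than that share. Ldhb no longer met the limit with median centring (0.84) or with the hybridization controls as the scale (0.96), while Aldoc lay 1.45 to 1.75 apart under the alternatives. The remodeling value of Ldhb was 0.00 with median centring and 0.01 with the hybridization controls as the scale, and that of Aldoc stayed negative in all 4 scalings. No group had enough arrays for a search for outlying samples.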

How the results depend on the processing

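Scaling moved the remodeling Ets2 comparison and the tumor minus remodeling comparison of the Ets2-deficient arrays, because the Ets2-deficient remodeling array had the lowest median and the lowest hybridization controls. With median centring the remodeling Ets2 comparison called 1 of 23 bright members (Pdk1) in place of 0, where 6.84% of all bright genes were called. The member median there was 0.018. The Ets2-deficient tumor minus remodeling comparison called 5 of 26 in place of 9, without Hk1, Ldha, Ldhb and Ddit4, where 10.7% of all bright genes were called. Its member median was 0.15. The median difference of the Ets2 differences, recomputed as a choice made after seeing the data, was 0.26 in place of 0.53. Centring on the hybridization controls gave 1 call (Pdk1) and a median of 0.0235 in the first comparison, where 6.86% of all bright genes were called. In the second it gave the same 5 calls and a median of 0.25, where 9.72% were called. It also split the Ets2-expressing tumor minus remodeling calls as 2 higher and 2 lower, against 2 and 1, with Slc16a3 added, where 11.3% were called. Relative to the median of all genes the member medians were the same under both centrings by construction (0.24 for the tumor Ets2 comparison, -0.21 for the remodeling one, 0.46 and 0.22 for tumor minus remodeling with the Ets2-deficient and Ets2-expressing label). The 75th percentile filter removed Aldoc, Egln3 and Pfkl, leaving 0 calls in the tumor Ets2 comparison and 1 in the Ets2-expressing tumor minus remodeling comparison. The calls of these genes in the Ets2-deficient tumor minus remodeling comparison were lost as well. Their levels of 7.70, 7.80 and 7.32 on the Ets2-deficient tumor array lay below its 75th percentile (8.82). At 1.5-fold the calls were 4 (tumor Ets2), 6 (remodeling Ets2) and 8 (Ets2-expressing tumor minus remodeling), where 15.3%, 16.3% and 29.8% of all bright genes were called. With the mean of all bright probe sets, Ldhb was no longer called on the Ets2-deficient arrays (0.96), and the member median of the tumor Ets2 comparison was 0.11 in place of 0.24. No member changed sign under any alternative in a comparison in which it was called; in other comparisons small values of called members did, such as Hk1 (-0.06 as deposited, 0.14 with median centring) in the remodeling Ets2 comparison. No paired analysis was possible because each group holds 1 array. Fold sizes are limited by signal over background for Aldoc, Egln3 and Car12 on the remodeling arrays.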

Other observations

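The pentose phosphate pathway branches from glucose 6-phosphate to make NADPH and ribose. In the Ets2-expressing tumor minus remodeling comparison 7 of its 7 genes lay above 0 (median 0.37), against 56.6% of all genes. In the Ets2-deficient one 5 of 7 did (median 0.15), against 51.0%. In the remodeling Ets2 comparison 7 of 7 did (median 0.28), against 54.2%, and in the tumor one 5 of 7 (median 0.08), against 49.8%. The lactonase gene Pgls was the 1 gene called, at 1.004 with the Ets2-expressing label, where 11.4% of all bright genes were called. Taldo1 and Tkt, the transaldolase and transketolase that lead back to glycolysis, were higher in tumor than in remodeling macrophages with both labels, by 0.69 and 0.55 on the Ets2-deficient arrays and by 0.37 and 0.47 on the Ets2-expressing arrays.

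Of 9 genes for the entry of pyruvate into mitochondria none was called in any comparison, and their Ets2 medians were -0.02 in tumor and -0.03 in remodeling macrophages. Pdk4, a pyruvate dehydrogenase kinase gene tied to fatty acid use, gave -0.56 in tumor and 0.37 in remodeling macrophages. The 14 genes of gluconeogenesis and glycogen had Ets2 medians of 0.06 and 0.12 for the same settings and no call in any comparison. Among 17 other isoenzymes and transporters of glycolysis (Ets2 medians -0.17 and -0.06), the sugar transporter gene Slc2a8 alone was called, higher in tumor macrophages with the Ets2-expressing label (1.22).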
